A study of Mus musculus with 14 samples.

Results

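A set of 7 genes of natural killer (NK) cell activation was followed across sorted mouse NK cells: Ncr1, the adaptors Tyrobp, Hcst and Fcer1g, the SLAM family receptors Cd244a and Slamf7, and Cd160. They were listed by name, not by a threshold on their values, and all 7 stood among the 10210 genes of the NK table and among the 8471 genes that passed the filter on low counts. Libraries were made of NK cells from healthy BALB/c spleens (3 libraries), from spleens of BALB/c females with a 4T1-GFP tumour (4 libraries) and from such tumours (4 libraries). The mice were 8 weeks old, and 100000 4T1-GFP cells had been placed in the lower left mammary fat pad of the tumour-bearing females. 4T1 is a BALB/c mammary carcinoma line, here marked with green fluorescent protein, so the tumours came from injected cells of 1 line. The labels name no engineered allele in the mice and no drug.

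The labels call the libraries independent replicates. After magnetic enrichment, cytometry kept cells with CD45 and NKp46 and removed those with CD3, CD14, CD31, EPCAM or GFP. NKp46 is the protein that Ncr1 encodes, so every level below is that of cells already chosen for NKp46 on the surface, and NK cells that had lost it were not collected. Tumours were digested with collagenase A and DNase for 20 min at 37 °C, whereas spleens were crushed and freed of red cells for 5 min on ice, so tissue and handling cannot be told apart. The stated purpose was to describe the state of NK cells inside 4T1 tumours, with both kinds of spleen as controls.

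NKp46 is an activating receptor of NK cells and of some other innate lymphoid cells. It has almost no signalling part of its own and relies on small partner chains in the membrane. These are the common gamma chain of Fc receptors, encoded by Fcer1g, and the zeta chain, encoded by Cd247. Tyrobp encodes DAP12, an adaptor of other receptors. The gamma chain and DAP12 both have immunoreceptor activation motifs that recruit the kinases Syk and ZAP-70. Hcst encodes DAP10, which serves the receptor NKG2D through phosphatidylinositol 3-kinase. Cd244a encodes 2B4, a SLAM family receptor that binds CD48 on neighbouring cells, and Slamf7 encodes CRACC, which binds itself. Their tails recruit SAP, EAT-2 or both, the products of Sh2d1a and of Sh2d1b1 and its relatives. Cd160 encodes a glycolipid-anchored receptor that binds HVEM, the product of Tnfrsf14.

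In the GRCm38 annotation Ncr1 lies on the plus strand at chr7:4337724-4345164. Tyrobp (chr7:30413760-30417585, plus strand) and Hcst (chr7:30417712-30419854, minus strand) end tail to tail, with 126 bases between them. Fcer1g lies at chr1:171229572-171234365 on the minus strand. Cd244a (chr1:171559193-171609746, plus strand) and Slamf7 (chr1:171632403-171653035, minus strand) belong to the SLAM gene cluster of the same chromosome. Cd160 lies at chr3:96798763-96829351 on the minus strand. The annotated Cd244a gene spans the whole of Ly9 on the opposite strand (18787 bases), although the RefSeq model of Cd244a ends before Ly9. Slamf7 overlaps the antisense gene Gm37787 by 1144 bases and Cd160 overlaps Pdzk1 by 68. Whether the counting used strand is not given in the sources used here, so reads from the overlapping stretches cannot be told apart.

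Promoter windows of 300 bases around the RefSeq start site (GRCm38.p6) were at hand for 6 of the 7 genes, all but Tyrobp. They are shown for the 3 genes that passed the test as lower in tumours (edgeR adjusted p under 0.05) in at least 1 comparison. Capitals mark the letters TGTGGT or their reverse complement ACCACA, a core spelling bound by Runx factors, which are regulators of lymphocyte and NK cell genes. The Ncr1 window is chr7:4337465-4337764 on the plus strand, the Cd160 window is the first of the gene's listed starts at chr3:96829302-96829601 on the minus strand, and the Cd244a window is chr1:171558943-171559242 on the plus strand.
Ncr1: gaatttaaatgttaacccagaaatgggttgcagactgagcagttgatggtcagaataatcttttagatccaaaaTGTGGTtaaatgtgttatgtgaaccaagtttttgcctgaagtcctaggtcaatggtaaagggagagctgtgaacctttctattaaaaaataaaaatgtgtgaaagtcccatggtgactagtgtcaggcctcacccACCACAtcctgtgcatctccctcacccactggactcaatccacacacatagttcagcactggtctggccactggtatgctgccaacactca
Cd160: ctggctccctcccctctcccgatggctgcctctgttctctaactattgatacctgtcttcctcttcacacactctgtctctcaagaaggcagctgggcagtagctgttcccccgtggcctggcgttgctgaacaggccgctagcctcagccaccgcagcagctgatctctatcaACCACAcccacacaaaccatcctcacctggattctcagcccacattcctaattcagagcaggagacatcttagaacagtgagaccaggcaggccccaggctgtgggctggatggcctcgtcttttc
Cd244a: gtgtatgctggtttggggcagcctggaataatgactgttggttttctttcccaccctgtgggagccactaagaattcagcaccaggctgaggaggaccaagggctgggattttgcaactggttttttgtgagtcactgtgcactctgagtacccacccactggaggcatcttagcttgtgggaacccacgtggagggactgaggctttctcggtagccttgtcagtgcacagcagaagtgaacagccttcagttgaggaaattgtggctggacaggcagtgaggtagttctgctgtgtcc

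The Ncr1 window held 2 of these matches, at positions -176 and -41 from the start site, on opposite strands. The Cd160 window held 1, at -76, and the window of the second listed Cd160 start held 1 at -101. Cd244a, Hcst and Slamf7 held none, and Fcer1g held 1, at 10 bases past its start. Of 32851 promoter windows of the same length, 16.8% held at least 1 match. The letters GGAAG or CTTCC, a core spelling of ETS factors, occurred in 71.4% of all windows. They were found in those of Hcst (3 matches), Fcer1g (4), Slamf7 (1) and Cd160 (1 in the first window and 3 in the second), and not in those of Ncr1 and Cd244a. These matches are letters in a window, and no binding was measured.

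The values are 3' end counts, given as CPM (counts put on one library scale with the TMM factors of edgeR). A 3' count is not divided by gene length, so levels are compared between libraries and not between genes. Totals ran from 559688 to 1966963 counts over the NK libraries, and 3 counts, the limit that a count of 0 allows, stood for 1.54 to 4.62 CPM (counting error only). Within a group, the Pearson r of log2 CPM across genes was 0.925 to 0.974 for pairs of libraries. The spleen libraries fell on opposite sides of a second principal component with 15.3% of the variance: healthy replicate 1 and tumour-bearing replicates 1 and 2 on one side (12.6 to 47.6), the other 4 on the other (-23.9 to -6.28). Results on the called genes were therefore also computed against each side alone. One side of the healthy spleens is replicate 1 alone, a single library assumed to vary like the other groups, so fold changes against it are given with their SE and with no verdict on the call. Tumour replicate 3 stood apart in macrophage markers, as given beside the adaptors. In bulk libraries, fewer cells that express a gene and less of its RNA per cell cannot be told apart.

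Ncr1 was lower in NK cells from tumours than in those from either spleen. Its level was 1806, 1669 and 1332 CPM in healthy spleens, 1678, 1501, 1328 and 929.4 in tumour-bearing spleens, and 900.1, 828.9, 914.5 and 716.9 in tumours. All 4 tumour libraries lay below all 7 spleen libraries, and the spleen groups overlapped. Tumours reached 61.8% of the tumour-bearing spleen level, a log2 fold change of -0.69 (SE 0.172, 95% interval -1.05 to -0.33, edgeR quasi-likelihood test, Benjamini-Hochberg adjusted p = 0.00486 over all genes tested). Against healthy spleens they reached 52.5% (log2 fold change -0.93, SE 0.184, 95% interval -1.32 to -0.54, adjusted p = 0.000714 in edgeR). Against tumour-bearing replicates 1 and 2 alone the log2 fold change was -0.92, and against replicates 3 and 4 alone it was -0.46, with edgeR adjusted p = 1.09e-05 and 0.0178. All 18 alternatives against tumour-bearing spleens kept the call, with log2 fold changes from -0.92 to -0.46. Against healthy spleens the 17 alternatives ran from -1.12 to -0.80. Those with more than a single healthy library kept the call.

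**Figure D1:**
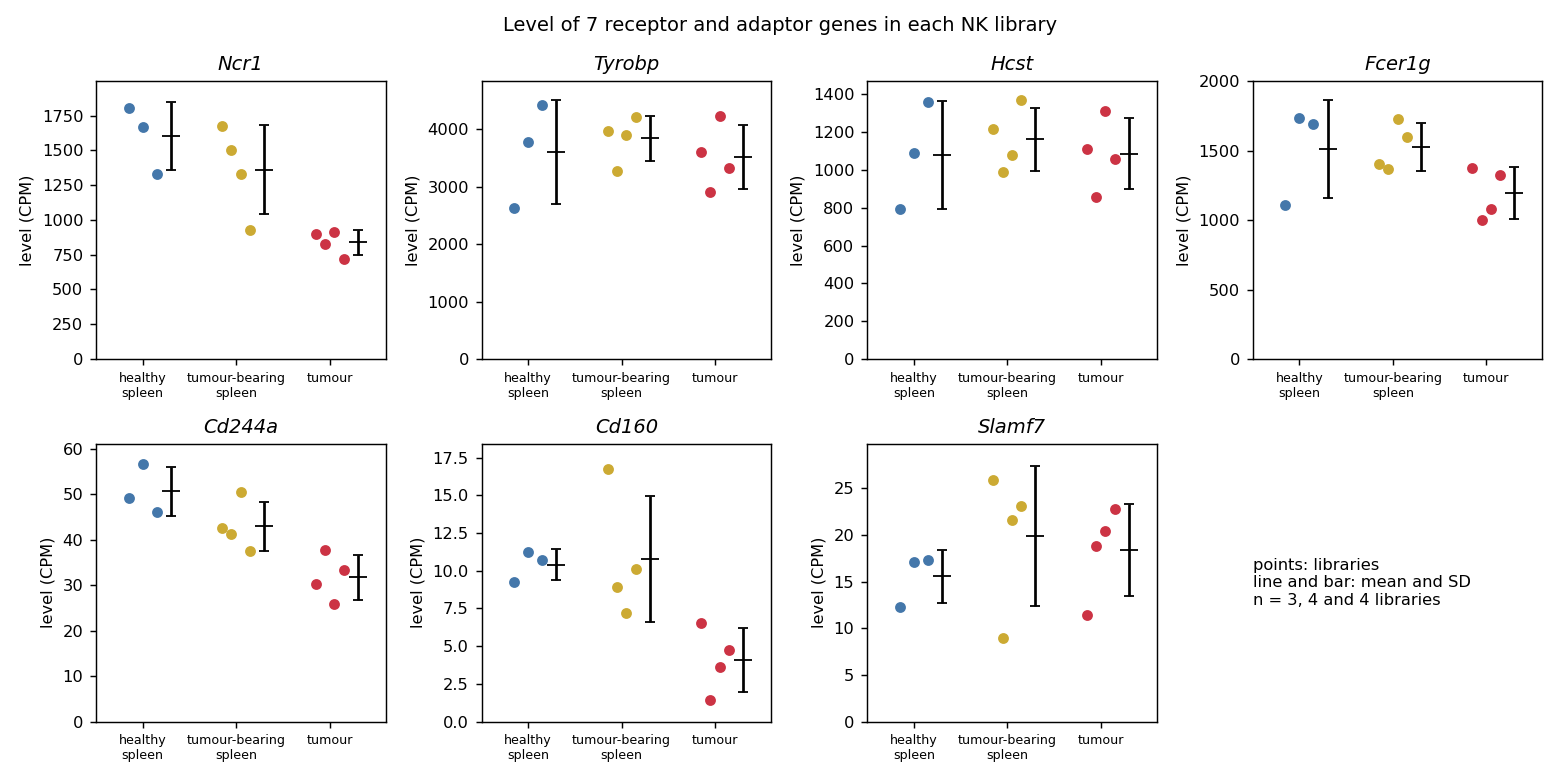
Level of each of the 7 genes in CPM (vertical axes, starting at 0 and scaled per gene) in every NK library of the 3 groups (points), with the mean and SD of each group beside them. The tumour points of Ncr1 (716.9 to 914.5 CPM) and Cd160 (1.45 to 6.56 CPM) lie below all spleen points, while those of Tyrobp, Hcst and Slamf7 lie among them.

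Of the 7 genes, 0 rose and 2 fell (Ncr1 and Cd160) between tumour-bearing spleens and tumours, where 29% of all genes tested were called, 15.8% higher and 13.2% lower. At an unadjusted p under 0.05 the count was 4 of 7, against 39.4% of all genes tested. In 2 of the 7 all tumour libraries lay below all tumour-bearing spleens, as in 13.3% of genes tested. All 7 fold changes were below 0, with a median log2 of -0.35 beside 0.0014 over all genes. Against healthy spleens 0 rose and 3 fell (Ncr1, Cd160 and Cd244a), where 30.5% of genes tested were called, 16.5% higher and 14% lower. The same 3 were the genes whose tumour libraries all lay below all healthy spleens, as in 16.3% of genes tested, and the genes with an unadjusted p under 0.05, as in 41% of them. There 5 of the 7 fold changes were below 0 and 2 above it (Hcst and Slamf7), with a median of -0.34 beside 0.02 over all genes. Both comparisons use the same tumour libraries, so they are not independent of each other. Cd160 passed the filter on low counts through the spleen libraries alone.

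**Figure D2:**
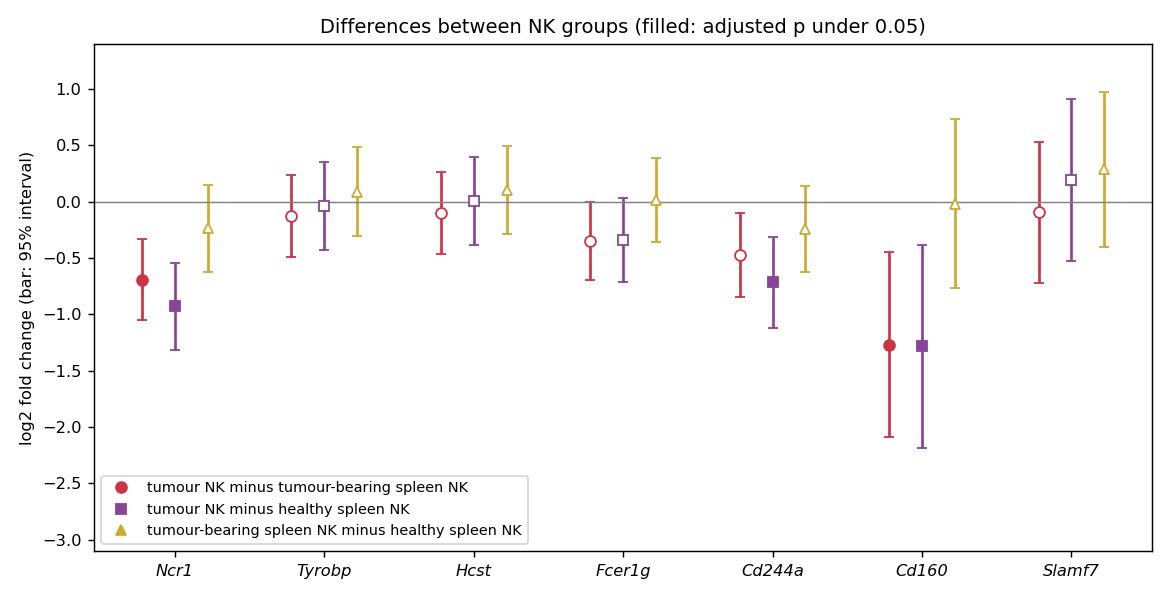
Log2 fold change (vertical axis) of each gene in the 3 comparisons of NK groups, as fitted by edgeR over all 11 NK libraries, with the 95% interval as a bar and filled symbols for an adjusted p under 0.05. Filled symbols appear for Ncr1 and Cd160 in both tumour comparisons and for Cd244a against healthy spleens, and all symbols of the comparison between spleens are open.

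The 3 adaptor genes did not pass the test in any comparison. Tyrobp stood at 2623, 3774 and 4418 CPM in healthy spleens, 3975, 3274, 3896 and 4211 in tumour-bearing spleens, and 3602, 2903, 4230 and 3323 in tumours. The 3 groups overlapped throughout, and the lowest library was healthy replicate 1. Its log2 fold change in tumours was -0.13 against tumour-bearing spleens (95% interval -0.49 to 0.24, edgeR adjusted p = 0.622) and -0.04 against healthy spleens (-0.43 to 0.35, adjusted p = 0.901).

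Hcst followed Tyrobp from library to library. It stood at 792, 1088 and 1360 CPM in healthy spleens, 1214, 989.1, 1077 and 1371 in tumour-bearing spleens, and 1111, 856.4, 1314 and 1060 in tumours. No group stood apart, and the log2 fold change in tumours was -0.10 (95% interval -0.46 to 0.27, edgeR adjusted p = 0.717) and 0.0064 (-0.39 to 0.40, adjusted p = 0.983) against tumour-bearing and healthy spleens.

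Fcer1g had the largest difference of the adaptors, short of the threshold. Its level was 1106, 1739 and 1689 CPM in healthy spleens, 1406, 1366, 1731 and 1600 in tumour-bearing spleens, and 1379, 1001, 1077 and 1327 in tumours. The tumour libraries reached 78.4% of the tumour-bearing spleen level, but tumour replicate 1 lay above tumour-bearing replicate 2, and healthy replicate 1 lay among the tumour libraries. The log2 fold change was -0.35 against tumour-bearing spleens (SE 0.165, 95% interval -0.70 to -0.0044, edgeR adjusted p = 0.122) and -0.34 against healthy spleens (SE 0.178, adjusted p = 0.16). Its size differed with the spleens that served as controls. Against tumour-bearing replicates 3 and 4 alone it was -0.52 (edgeR adjusted p = 0.00565), and against replicates 1 and 2 alone -0.22 (0.354). Without healthy replicate 1 the log2 fold change against healthy spleens was -0.54 (edgeR adjusted p = 0.0117), and against that library alone the fold change was 0.09 (SE 0.209).

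Fcer1g and Tyrobp are also expressed by macrophages, neutrophils and mast cells, so markers of those cells are given here. Of 12 macrophage and monocyte markers 9 were listed, and their summed level was 162.7 to 859.9 CPM in healthy spleens, 180.2 to 731 in tumour-bearing spleens and 599 to 1311 in tumours. Most of it was Ccr2. The other 8, a subset formed after the values were seen, summed to 9.25 to 24.1, 17.5 to 28.8 and 44.7 to 258.5 CPM. The top value was tumour replicate 3, and the other tumour libraries reached at most 56.5. Csf1r was at 0 in all 7 spleen libraries and reached 12 counts in a tumour library, and Cd14, which the sort excluded, had 0 to 3 counts in spleens and 5 to 32 in tumours. Of 9 neutrophil markers 5 were listed, with sums of 1.61 to 7.71, 1.45 to 13.4 and 61.5 to 158 CPM. The mean level of S100a8 was 25.1 CPM in tumours, against at most 3.35 in a spleen library, and that of S100a9 was 56.9 CPM, against at most 8.24. Both passed the filter on low counts through the tumour libraries. Of 5 basophil and mast cell markers 2 were listed, at sums of at most 2.06 CPM in spleens and 5.74 to 11.4 in tumours. Without tumour replicate 3 the log2 fold change of Tyrobp against tumour-bearing spleens was -0.24 and that of Fcer1g was -0.32 (edgeR adjusted p = 0.351 and 0.207). How much these other cells added to the adaptor counts was not tested.

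Ratios of counts within a library do not depend on the scaling of libraries. Hcst gave 30.2, 28.8 and 30.8 counts per 100 Tyrobp counts in healthy spleens, 30.5, 30.2, 27.6 and 32.6 in tumour-bearing spleens, and 30.8, 29.5, 31.1 and 31.9 in tumours. The 3 group means were 29.9, 30.2 and 30.8, with SDs of 1.01, 2.02 and 0.994, while the Tyrobp level itself ran from 2623 to 4418 CPM. Fcer1g per 100 Tyrobp was 42.2 ± 3.92 (SD, n = 3) in healthy spleens, 39.9 ± 4 (SD, n = 4) in tumour-bearing spleens and 34.5 ± 6.47 (SD, n = 4) in tumours. Its lowest value, 25.5, was that of tumour replicate 3, and the groups overlapped.

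The ratio of Ncr1 to Tyrobp did not pass the adjusted test in either tumour comparison. Per 100 Tyrobp counts Ncr1 gave 68.9, 44.2 and 30.2 in healthy spleens, 42.2, 45.8, 34.1 and 22.1 in tumour-bearing spleens, and 25, 28.6, 21.6 and 21.6 in tumours. The tumour libraries lay below all healthy spleens and overlapped the tumour-bearing spleens through replicate 4 of the latter. The exact two-sided permutation test gave p = 0.0286 against healthy and 0.0857 against tumour-bearing spleens, and 0.343 and 0.513 after Benjamini-Hochberg adjustment over 12 such tests. The smallest p this test can give is 0.0286, in each of the 12, so a lone ratio at that limit, as here, could not pass after adjustment. Per 100 Fcer1g counts Ncr1 gave 113 ± 44.6 (SD, n = 3), 91 ± 28.6 (SD, n = 4) and 71.7 ± 14.7 (SD, n = 4), and the groups overlapped (exact permutation p = 0.143 and 0.371 for tumours against healthy and tumour-bearing spleens).

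**Figure D3:**
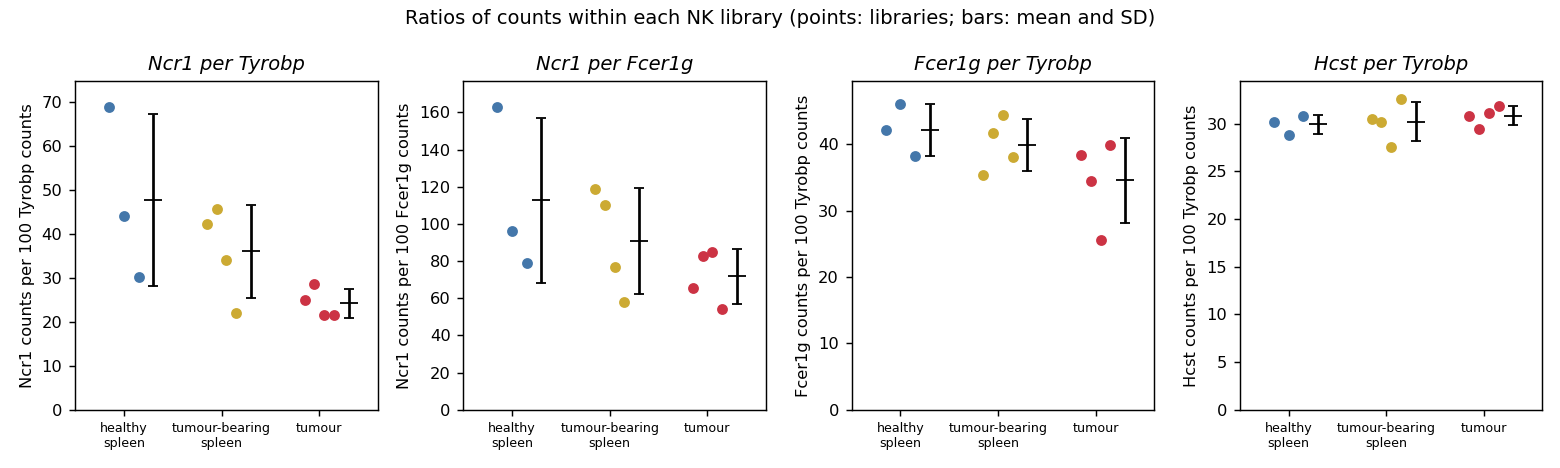
Counts of one gene per 100 counts of another within each NK library (vertical axes starting at 0), with points for libraries and bars for the mean and SD of each group. Hcst per Tyrobp stays between 27.6 and 32.6 in all 11 libraries, while Ncr1 per Tyrobp ranges from 21.6 to 68.9.

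Across the 11 NK libraries Hcst was the gene most like Tyrobp among all genes tested (Pearson r of log2 CPM 0.968), followed by Snrnp25 (0.966) and Ddt (0.927). The same genes headed the list of Hcst, with Tyrobp at 0.968, Snrnp25 at 0.966 and Ddt at 0.94. Fcer1g was most like Ppp1r18 (0.975), Lbh (0.963) and Lypla2 (0.961), and its r with Tyrobp was 0.615. Ncr1 was most like Sike1 (0.943), Pus3 (0.935) and Ifi47 (0.932). Its r was -0.06 with Tyrobp, 0.776 with Cd244a and 0.726 with Cd160. These r values describe libraries that share the group differences and the split of the spleens, so they carry no test.

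Among the SLAM receptors, Cd244a was lower in tumours than in healthy spleens and Slamf7 was not called in any comparison. Cd244a stood at 49.3, 56.7 and 46.2 CPM in healthy spleens, 42.7, 41.3, 50.4 and 37.61 in tumour-bearing spleens, and 30.3, 37.68, 25.9 and 33.3 in tumours. The tumour libraries lay below all healthy spleens, and only the top tumour library reached the lowest tumour-bearing spleen. The log2 fold change was -0.71 against healthy spleens (SE 0.194, 95% interval -1.12 to -0.31, edgeR adjusted p = 0.00849) and -0.47 against tumour-bearing spleens (SE 0.179, -0.85 to -0.10, adjusted p = 0.0553). These levels rest on 26 to 43 counts per tumour library. The call against healthy spleens was lost without healthy replicate 2 (-0.61, edgeR adjusted p = 0.0699). Against healthy replicate 1 alone the log2 fold change of Cd244a was -0.69 (SE 0.332). The comparison with tumour-bearing spleens passed the threshold in 6 of 18 alternatives, among them those without tumour-bearing replicate 4 (-0.54, edgeR adjusted p = 0.0468) or without tumour replicate 2 (-0.54, 0.0477).

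Slamf7 had few counts, 8 to 42 per library. It stood at 12.3, 17.1 and 17.3 CPM in healthy spleens, 25.9, 8.93, 21.6 and 23.1 in tumour-bearing spleens, and 11.5, 18.8, 20.4 and 22.8 in tumours. The groups overlapped throughout. The log2 fold change in tumours was -0.10 against tumour-bearing spleens (95% interval -0.72 to 0.53, edgeR adjusted p = 0.845) and 0.19 against healthy spleens (-0.53 to 0.91, adjusted p = 0.714). These intervals overlap those of Cd244a (-0.85 to -0.10 and -1.12 to -0.31), and the 2 genes were not tested against each other.

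Cd160 had the largest fold change of the 7 genes and the smallest counts. It passed the filter on low counts through the spleen libraries, so its place among the genes tested already required it to be high there. Its counts were 6, 21 and 13 in healthy spleens, 22, 16, 14 and 14 in tumour-bearing spleens, and 8, 1, 6 and 5 in tumours. In CPM that was 9.25, 11.2 and 10.7, then 16.8, 8.93, 7.21 and 10.1, then 6.56, 1.45, 3.61 and 4.75. All tumour libraries lay below all spleens, several of them close to the limit that a count of 0 allows. The log2 fold change was -1.27 against tumour-bearing spleens (SE 0.394, 95% interval -2.09 to -0.45, edgeR adjusted p = 0.0206), and -1.28 against healthy spleens (SE 0.432, -2.19 to -0.38, adjusted p = 0.0299).

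Both Cd160 calls rested on single libraries. The call against tumour-bearing spleens was lost without tumour-bearing replicate 1 (-1.03, edgeR adjusted p = 0.0562), tumour replicate 2 (-1.09, 0.0529) or tumour replicate 3 (-1.17, 0.0628), and against tumour-bearing replicates 3 and 4 alone (-1.002, 0.0771). That against healthy spleens was lost without healthy replicate 2 (-1.22, edgeR adjusted p = 0.113), healthy replicate 3 (-1.28, 0.0723), tumour replicate 2 (-1.11, 0.066) or tumour replicate 3 (-1.19, 0.0767). It was also lost in DESeq2 (-1.32, adjusted p = 0.0557). Against healthy replicate 1 alone the log2 fold change of Cd160 was -1.10, with an SE of 0.78. The direction was the same in all of these. Of the HVEM side, Tnfrsf14 was near the count limit in NK cells, at 4.54 ± 1.87 CPM (SD, n = 4) in tumours and 5.3 ± 2.79 (SD, n = 4) in tumour-bearing spleens. Tnfsf14, which encodes LIGHT, another HVEM ligand, stood at 113.5 CPM in tumours and 82.7 in healthy spleens (log2 fold change 0.46, edgeR adjusted p = 0.0268). That call was lost without healthy replicate 2 (0.37, adjusted p = 0.159), tumour replicate 1 (0.45, 0.0559) or tumour replicate 4 (0.41, 0.0747).

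**Figure D4:**
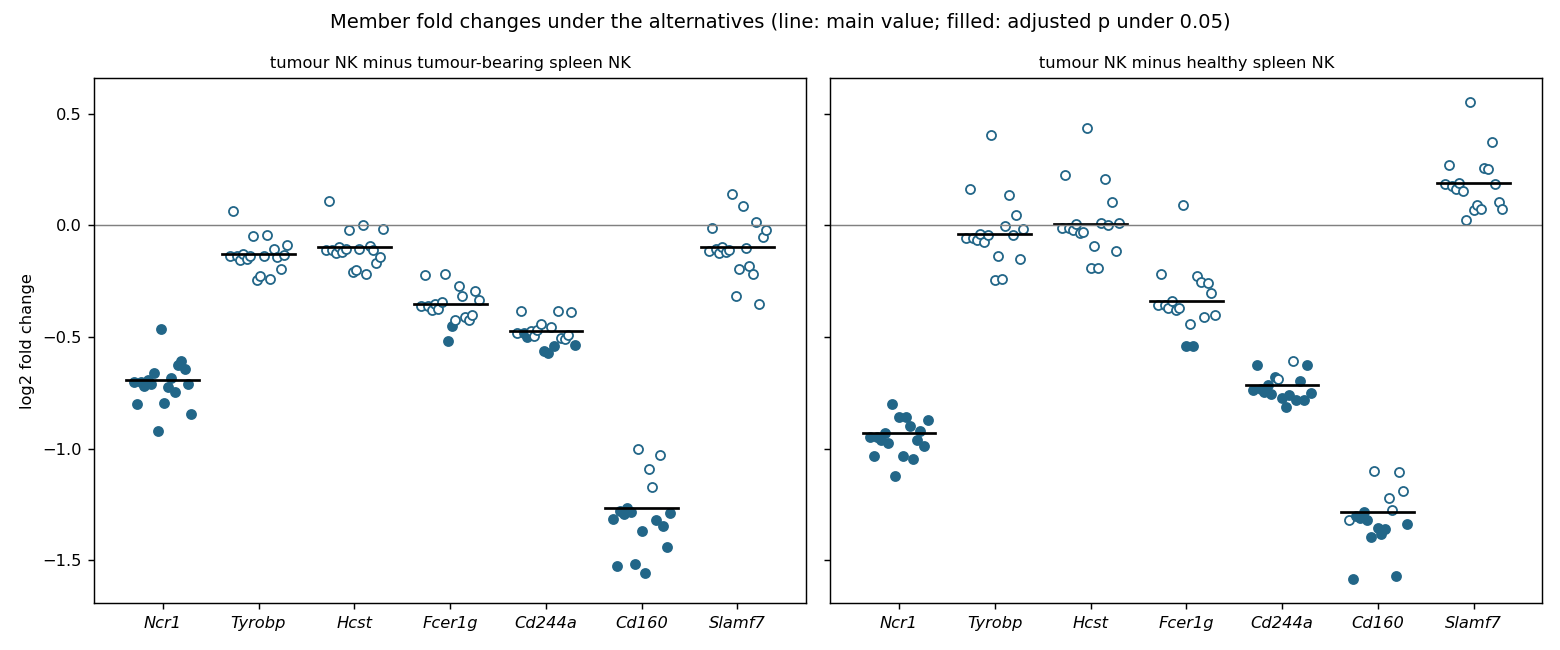
Log2 fold change of each gene (vertical axis) under every alternative setting (points, filled for an adjusted p under 0.05) around the reported value (line), for tumours against tumour-bearing spleens (left) and healthy spleens (right). All points of Ncr1 are filled and below 0, those of Cd160 are below 0 with 4 open points on the left and 6 on the right, and those of Tyrobp, Hcst and, on the left, Slamf7 lie on both sides of 0. On the right, each gene's point against healthy replicate 1 alone carries no verdict on its call.

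The neighbours of Cd244a and Slamf7 in the SLAM cluster and their adaptors were read from a list of 11 genes, of which 8 were in the table and 6 were tested. Against tumour-bearing spleens 0 rose and 2 fell, Cd48 and Ly9, and against healthy spleens 0 rose and 2 fell, Cd48 and Cd2. Over all genes tested, 15.8% rose and 13.2% fell in the first comparison, and 16.5% and 14% in the second. The median log2 fold change of the 6 was -0.34 and -0.47, beside 0.0014 and 0.02 over all genes. Cd48 encodes the ligand of 2B4, and NK cells carry it themselves. Its level was 502.3, 700.9 and 607.4 CPM in healthy spleens, 529.7, 566.5, 620.2 and 453.5 in tumour-bearing spleens, and 312.3, 275.3, 269.4 and 329 in tumours. Tumours and spleens did not overlap, with log2 fold changes of -0.87 (SE 0.143, edgeR adjusted p = 0.000114) and -1.03 (SE 0.153, adjusted p = 3.62e-05). Against either side of the spleens alone the Cd48 log2 fold changes ran from -1.17 to -0.78. Apart from the value against healthy replicate 1 alone, given with no verdict, they were called in edgeR.

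Ly9, a SLAM receptor that binds itself, averaged 177.5 ± 18.9 CPM (SD, n = 4) in tumours and 284 ± 80 (SD, n = 4) in tumour-bearing spleens (log2 fold change -0.68, edgeR adjusted p = 0.00576). Against healthy spleens, at 245 ± 41.4 CPM (SD, n = 3), the Ly9 difference was -0.46 (adjusted p = 0.0719 in edgeR). Since Ly9 lies within the annotated span of Cd244a, the 2 genes' counts are uncertain where strand was not used. Cd2, a relative outside the cluster that binds CD48 in mice, stood at 602.5 ± 72 CPM (SD, n = 4) in tumours and 964.1 ± 113 (SD, n = 3) in healthy spleens (log2 fold change -0.68, edgeR adjusted p = 0.00152). Against healthy replicate 1 alone that Cd2 value was -0.49 (SE 0.199).

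The other receptors of the cluster gave values short of the threshold. Slamf6 and Cd84 had log2 fold changes of 0.42 and 0.19 against tumour-bearing spleens (edgeR adjusted p = 0.242 and 0.654). Slamf1 had 0 to 6 counts per library and was not tested. Of the adaptors, Sh2d1a stood at 66.3 ± 20.1 CPM (SD, n = 4) in tumours and 88.4 ± 11 (SD, n = 4) in tumour-bearing spleens (log2 fold change -0.42, edgeR adjusted p = 0.134), and Sh2d1b1, at 0 to 12 counts, was not tested.

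**Figure D5:**
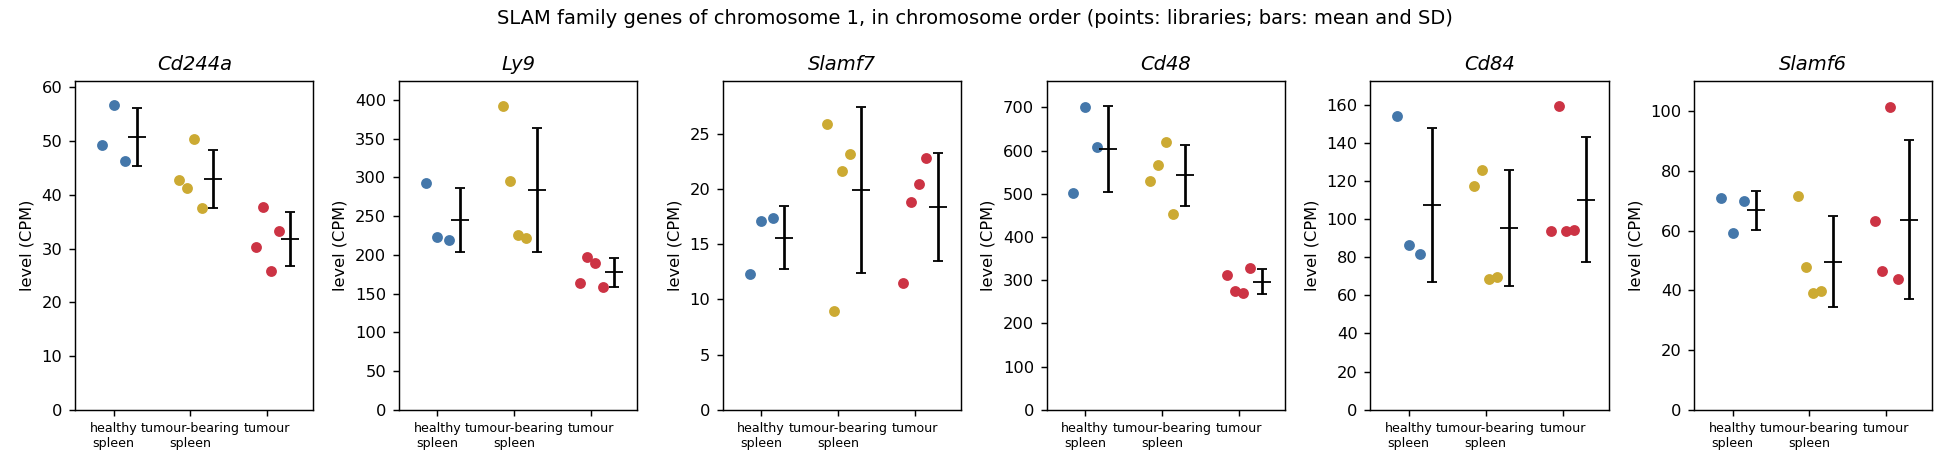
Level in CPM (vertical axes starting at 0, scaled per gene) of 6 SLAM family genes of chromosome 1 in every NK library (points), in the order in which they lie on the chromosome, with the mean and SD of each group. Cd48 (269.4 to 329 CPM in tumours) and Ly9 (158.8 to 197.1 CPM) lie below all spleen libraries, while Slamf7, Cd84 and Slamf6 overlap between groups.

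Other receptors that signal through the same adaptors were read from a list of 8, with 7 in the table and 5 tested. In each tumour comparison 1 rose and 2 fell, and the median log2 fold change was -0.09 against tumour-bearing and -0.43 against healthy spleens. The shares over all genes tested were 15.8% higher and 13.2% lower, then 16.5% and 14%. Klrb1a and Klrb1c, which encode NKR-P1 receptors that use the Fc receptor gamma chain, fell by 1.27 and 0.68 on the log2 scale against tumour-bearing spleens (edgeR adjusted p = 2.35e-07 and 0.000167). The gene counted as higher was Pilrb1, which encodes a DAP12-coupled receptor. It stood at 12 ± 2.54 CPM (SD, n = 4) in tumours and at means of 0.33 and 0 CPM in tumour-bearing and healthy spleens, under the limit that a count of 0 allows there. It passed the filter on low counts through the tumour libraries, so its place among the genes tested already required it to be high there. Klrk1, which encodes NKG2D, the partner of DAP10, was at 387.4 ± 37.1 CPM (SD, n = 4) in tumours and 411.3 ± 110 (SD, n = 4) in tumour-bearing spleens (log2 fold change -0.09, edgeR adjusted p = 0.774). Fcgr3, which encodes the Fc receptor CD16 and uses the gamma chain, had a log2 fold change of 0.15 in that comparison (adjusted p = 0.456) and of -0.38 against healthy spleens (0.0611) in edgeR.

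Downstream of the adaptors, a list of 30 kinases and proximal signalling genes had 28 members tested. Against tumour-bearing spleens 7 rose and 6 fell, and against healthy spleens 8 rose and 4 fell, with medians of 0.11 and -0.0026. Over all genes tested, 15.8% rose and 13.2% fell in the first comparison, and 16.5% and 14% in the second. Syk, which binds the phosphorylated motifs of DAP12 and the gamma chain, averaged 84.3 ± 14.6 CPM (SD, n = 4) in tumours and 150.7 ± 21.9 (SD, n = 4) in tumour-bearing spleens. It fell by 0.83 and 1.00 on the log2 scale against tumour-bearing and healthy spleens (edgeR adjusted p = 0.000365 and 0.000101). Against either side of the tumour-bearing spleens alone Syk kept its call, as it did without healthy replicate 1. Against healthy replicate 1 alone its log2 fold change was -0.80 (SE 0.243). Zap70, its relative, had a log2 fold change of -0.03 against tumour-bearing spleens (edgeR adjusted p = 0.927).

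Cd247, which encodes the zeta chain that pairs with NKp46 beside the gamma chain, stood at 259.3 ± 29.5 CPM (SD, n = 4) in tumours and 374.7 ± 58.1 (SD, n = 4) in tumour-bearing spleens. Its log2 fold change was -0.53 there (edgeR adjusted p = 0.0113) and -0.41 against healthy spleens (0.0587). Against tumour-bearing replicates 1 and 2 alone the Cd247 call was lost (-0.33, edgeR adjusted p = 0.132).

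Among the genes of this list that rose against tumour-bearing spleens were Malt1, a paracaspase gene (log2 fold change 1.01), and Pik3r1, a phosphatidylinositol 3-kinase subunit (0.83), with edgeR adjusted p = 0.000124 and 0.00128. Pik3cd, the catalytic partner, was at -0.50 (edgeR adjusted p = 0.0254). That call was lost without tumour-bearing replicate 3 or 4 or tumour replicate 2 or 3, with log2 fold changes between -0.46 and -0.42 and edgeR adjusted p between 0.0609 and 0.0866, and against tumour-bearing replicates 1 and 2 alone (-0.29, 0.204). Against healthy spleens Vav3 (1.44) and Malt1 (0.76) were among the genes that rose, and Syk, Lat (-0.75) and Rac2 (-0.72) among those that fell. Against healthy replicate 1 alone the log2 fold change was 1.28 (SE 0.649) for Vav3, 0.38 (SE 0.232) for Malt1, -0.43 (SE 0.225) for Lat and -0.40 (SE 0.229) for Rac2.

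Of 16 negative regulators of these pathways, all tested, 2 rose and 4 fell against tumour-bearing spleens and 3 rose and 4 fell against healthy spleens. The shares over all genes tested were 15.8% higher and 13.2% lower, then 16.5% and 14%. The risers in the first comparison were Ptpn22, a phosphatase gene (log2 fold change 1.48, edgeR adjusted p = 0.000275), and Inpp5d, which encodes SHIP-1 (0.51, adjusted p = 0.00336). Dok2, an adaptor gene, fell by 1.02, Dgkz, a diacylglycerol kinase gene, by 0.82, Csk, which encodes a kinase that restrains Src kinases, by 0.58, and Ptpn6, which encodes SHP-1, fell by 0.49 on the log2 scale (edgeR adjusted p = 6.72e-05, 0.000898, 0.00532 and 0.00648). Against tumour-bearing replicates 1 and 2 alone the Ptpn6 call was lost (-0.39, adjusted p = 0.0531 in edgeR). Against healthy spleens Cblb, a ubiquitin ligase gene, rose by 1.34 and Sla fell by 0.94 on the log2 scale (edgeR adjusted p = 0.000721 and 0.00105). Against healthy replicate 1 alone the Cblb value was 0.67 (SE 0.351).

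Markers of innate lymphoid cells moved with the same comparisons. The 8 NK markers summed to 25440 to 26940 CPM in healthy spleens, 25360 to 28920 in tumour-bearing spleens and 18560 to 23580 in tumours. Most of it was Gzma, at means of 17180, 17490 and 13270 CPM, not called in tumours (edgeR adjusted p = 0.104 and 0.0653 against healthy and tumour-bearing spleens). Of the 8, 4 fell and 0 rose against tumour-bearing spleens (Klrb1c, Klre1, Nkg7 and Prf1). Eomes (0.48) and Il2rb (0.37) had log2 fold changes above 0 there, not called (edgeR adjusted p = 0.102 and 0.0896). Over all genes tested, 15.8% rose and 13.2% fell against tumour-bearing spleens, and 16.5% and 14% against healthy spleens. Against healthy spleens 3 fell (Klrb1c, Klre1 and Prf1) and 1 rose, Il2rb (log2 fold change 0.78, edgeR adjusted p = 0.00211). The 7 markers more common in type 1 innate lymphoid cells, which also carry NKp46, summed to 92.6 to 151, 84.4 to 208.1 and 627.5 to 766.3 CPM, and 5 of the 6 tested rose (Cxcr6, Tnfsf10, Tmem176a, Tmem176b and Rora). Itga1, a defining marker of those cells, had 0 to 2 counts in spleens and 5 to 8 in tumours. What part a change in the mix of cells had in the values of Ncr1, Cd160 and Cd244a was not tested. Of 8 dendritic cell markers 4 were listed (H2-Aa, H2-Ab1, Cd74 and Zbtb46, the last past the filter on low counts through the tumour libraries) and all 4 rose in tumours in both comparisons, with sums of 43.2 to 81.7, 72 to 126.5 and 265.2 to 380 CPM. Of 10 T cell markers 3 were listed, at 43.2 to 79.2, 99.4 to 149 and 64.7 to 105.7 CPM. Of these, Cd3d was called in all 3 comparisons. Its log2 fold change was -0.65 in tumours against tumour-bearing spleens, 0.82 in tumours against healthy spleens, and 1.47 in tumour-bearing against healthy spleens (edgeR adjusted p = 0.0325, 0.0287 and 0.00446). The B cell, fibroblast, epithelial and platelet lists had 1 or 2 genes listed each, at sums of at most 21.3 CPM in any library.

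Between healthy and tumour-bearing spleens, 0 of the 7 genes were called in edgeR, and 0 had an unadjusted p under 0.05, where 1.58% of all genes tested were called and 11.2% had such a p. DESeq2 called 0 as well. The log2 fold changes of tumour-bearing minus healthy spleens ran from -0.24 for Cd244a and Ncr1 to 0.29 for Slamf7, with edgeR adjusted p from 0.696 to 0.997. Their 95% intervals were -0.62 to 0.15 for Ncr1, -0.30 to 0.48 for Tyrobp, -0.36 to 0.38 for Fcer1g and -0.76 to 0.73 for Cd160. In all 7 genes the groups overlapped, where 12.2% of genes tested had groups apart. Of the pathway lists, 1 gene was called between the spleens in the fit to all NK libraries: Ptpn6 rose to 470.1 ± 48.3 CPM (SD, n = 4) from 288.1 ± 31.5 (SD, n = 3), a log2 fold change of 0.70 (edgeR adjusted p = 0.00913). That call was lost without healthy replicate 2 (0.66, edgeR adjusted p = 0.093). In a fit to the spleens alone with the side of the split as a block, other list genes were called as well, among them Klrk1 (-0.46), Fcgr3 (-0.50), Klrb1c (-0.46), Cd2 (-0.39), Sla (-0.76) and Tnfsf14 (0.51), with edgeR adjusted p = 0.00418, 0.00841, 0.00317, 0.0182, 3.74e-05 and 0.0095, and 0 of the 7 genes. Klrb1c was also called between the spleens in DESeq2 (-0.46, adjusted p = 0.00411).

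The 3 libraries of sCAFs, a subset of cancer-associated fibroblasts sorted from 4T1-GFP tumours without PDPN, CD31, CD45, GFP and EPCAM, formed a separate table of 12235 genes with no group to compare with. Of the 7 genes, Tyrobp (12, 13 and 4 counts) and Fcer1g (5, 2 and 2 counts) were listed there, at 5.38, 9.86 and 3.00 CPM for Tyrobp and at most 2.24 CPM for Fcer1g, where 3 counts stand for 1.35 to 2.28 CPM. Ncr1, Hcst, Cd244a, Cd160 and Slamf7 were not listed. Of the NKG2D ligand genes looked for, H60b (14, 3 and 2 counts) and Raet1e (4, 1 and 2 counts) were listed, and Cd48 and Tnfrsf14 were not. In the sCAF libraries 6 fibroblast markers summed to 453.3 to 1208 CPM, and 4 epithelial or carcinoma markers to 2976 to 3821 CPM. The listed macrophage and monocyte markers summed to 186.6 to 286.1 CPM, those of neutrophils to 166.8 to 486.5 and those of dendritic cells to 1596 to 6375. Those of basophils and mast cells reached at most 2.25 CPM. Which cells gave the counts of the genes above was not tested. Levels in the sCAF and NK tables come from separate tables and were not tested against each other.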

How the data were processed

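Bulk 3' end libraries were sequenced from polyA RNA of sorted cells, per the labels' protocols. The authors deposited raw counts per gene symbol, 1 table for the 11 NK libraries and 1 for 3 sCAF libraries. Per the submitters' processing notes, bcl2fastq, STAR 2.4.2a, HTSeq and mm10 were used. The annotation, the use of strand and of molecular identifiers are not given in the sources used here. Every listed NK gene reached 6 counts in some library, so totals are sums over listed genes. A header space in place of a tab was read as a column break.

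Counts were fitted in edgeR 4.0.16 (R 4.3.3) with filterByExpr, TMM scaling and a robust quasi-likelihood model of group over all 11 NK libraries, with Benjamini-Hochberg adjustment over 8471 genes and a threshold of 0.05. The test was checked on simulated data. Alternatives were DESeq2 1.42.0, RLE and upper-quartile scaling, no filter, no robust estimation, 2 groups only, a replicate block, the spleen sides, a GC offset and each library left out. Likeness is Pearson r of log2 CPM with a prior count of 2. Members, lists and the spleen split were chosen with earlier results of these data known. All 7 members were named. List genes were named where called and at most 6 per list, otherwise the 3 largest and 3 smallest, and binding partners always. A gene that this rule names is not reported here. Promoters are from RefSeq and gene positions from GENCODE M21.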

Additional observations from a re-analysis of the deposited data

How the results depend on the processing

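No result changed direction while called. Against healthy replicate 1 alone, 1471 genes and 1 of the 7 members (Ncr1) were called in tumours, beside 2582 and 3. That comparison has 1 control library, assumed to vary like the other groups, and in it the log2 fold changes of Cd160 and Cd244a were -1.10 and -0.69. With only the 2 groups in the fit, Cd160 did not pass the filter on low counts and 1 member was called against tumour-bearing spleens. With upper-quartile scaling 4 were called, beside 2. That scaling shifted the median of all genes by -0.0994 and -0.101 in the tumour comparisons, and the share of calls that were higher went from 54.5% to 41.6% and from 54.2% to 42.4%. Fcer1g passed under it against tumour-bearing spleens (-0.45, edgeR adjusted p = 0.0395). Between spleens, 221 genes were called with a GC offset, added after the data were seen, and 691 with a side block, beside 134, and 0 members throughout. With 1 library left out, calls ran from 1869 to 2509 genes and 1 to 3 members against tumour-bearing spleens, 1838 to 2971 genes and 1 to 4 members against healthy spleens, and 42 to 125 genes between spleens. The lowest counts of members came without tumour-bearing replicate 1 or tumour replicate 3, and without healthy replicate 2, which also gave the 42. Same-numbered libraries gave r from -0.353 to 0.501. Between tumours and tumour-bearing spleens, replicates 2 and 4 correlated best with their own number (r 0.288 and 0.211). Between spleens replicate 1 did (0.501), and the other same-numbered pairs did not. With so few libraries, these values cannot decide whether libraries pair. A replicate block gave 2626, 2648 and 115 genes and 2, 3 and 0 members. Uncalled Tyrobp and Hcst took either sign. The cause of these changes was not tested. Depth limits Cd160 and Slamf7, at 1 to 42 counts per library.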
